A study of Mus musculus with 2 samples.

Results

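Transcripts of 9 transcription factors of the prostate epithelial lineage, Hoxb13, Hoxd13, Hoxa13, Foxa1, Trp63, Gata3, Elf3, Ehf and Klf5, were examined cell by cell in prostate lesions of mice. The members were named by gene symbol, and all 9 were found among the 19320 features of the table. The mice carried a human androgen receptor transgene (hARtg) and the mTmG reporter, with the genotype R26mTmG/hAR:Osr1Cre/+, so that Cre made under the Osr1 promoter turned on both hARtg and membrane-bound green fluorescent protein in Osr1-lineage cells. These features were shared by both groups of the study, prostatic intraepithelial neoplasia (PIN, 1 sample) and prostatic adenocarcinoma (PCa, 1 sample), and neither held a mouse without the transgene. Tissue was dissociated with collagenase and TrypLE and profiled by droplet-based 3' end RNA sequencing on the 10x Genomics platform. The labels do not give the number or age of the mice behind a library. The cell columns ended in _1 or _2 (called the suffix in the plots), and no label ties an ending to a tissue, so no cell was assigned to PIN or to PCa. The cells are therefore described by ending. Comparisons with under 50 cells on a side in an ending, and some others, are given for 1 ending only.

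Sequence-specific transcription factors hold epithelial cells in their lineage. The posterior HOX proteins pattern the urogenital sinus from which the prostate arises, and Hoxb13 stays on in the adult ventral and secretory luminal epithelium. FOXA1 is a pioneer factor that opens chromatin for steroid receptors. The p63 protein encoded by Trp63 maintains basal cells, GATA3 acts in luminal differentiation, ELF3 and EHF are epithelial ETS factors, and KLF5 is a zinc finger factor of proliferating and basal epithelium.

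The promoters of Foxa1, Hoxd13 and Hoxa13 are shown because these members changed 2-fold or more between EGFP-high and all other luminal cells of ending _2 and had an entry among the RefSeq promoters of GRCm38.p6, the build family of the mm10 genome used for the counts. An entry was present for 5 of the 9 members. Each window holds 250 bases before and 50 after a start site, in the 5' to 3' direction of the gene, at chr12:57546062-57546361 (minus strand) for Foxa1, chr2:74667975-74668274 (plus strand) for Hoxd13 and chr6:52260831-52261130 (minus strand) for Hoxa13. Capitals mark matches to 6 motifs searched on both strands, the forkhead motif TGTTTAC, the HOX13 motif CAATAAA, the GATA motif AGATAA, the ETS motif AGGAAGT, the KLF motif GGGTGGG and the steroid receptor motif AGAACA.
Foxa1: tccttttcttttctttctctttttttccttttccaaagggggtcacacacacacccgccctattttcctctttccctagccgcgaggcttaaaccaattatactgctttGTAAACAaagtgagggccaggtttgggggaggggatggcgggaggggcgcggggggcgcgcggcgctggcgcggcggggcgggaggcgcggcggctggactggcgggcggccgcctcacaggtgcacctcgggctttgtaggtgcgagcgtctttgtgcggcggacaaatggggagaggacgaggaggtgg
Hoxd13: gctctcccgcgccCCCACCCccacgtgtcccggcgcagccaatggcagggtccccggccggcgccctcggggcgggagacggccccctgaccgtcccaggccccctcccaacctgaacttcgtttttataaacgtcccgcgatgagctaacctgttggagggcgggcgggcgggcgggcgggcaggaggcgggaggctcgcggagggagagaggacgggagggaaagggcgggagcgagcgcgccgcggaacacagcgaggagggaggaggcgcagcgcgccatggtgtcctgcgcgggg
Hoxa13: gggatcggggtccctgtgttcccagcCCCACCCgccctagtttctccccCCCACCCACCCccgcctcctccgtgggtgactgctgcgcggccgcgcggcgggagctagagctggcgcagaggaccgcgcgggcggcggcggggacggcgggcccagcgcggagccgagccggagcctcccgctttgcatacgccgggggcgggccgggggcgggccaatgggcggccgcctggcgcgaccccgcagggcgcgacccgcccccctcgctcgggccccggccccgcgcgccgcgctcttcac
The Foxa1 window held 1 forkhead match, at position -141 from the start site, a motif found in 3.65% of the 32851 promoters searched. The KLF motif, found in 17.5% of all promoters, occurred 1 time in Hoxd13 at -237 and 3 times in Hoxa13 at -224, -201 and -197, where the last 2 matches overlap each other. Of the other windows, Gata3 held 2 KLF matches at -160 and -156 and Elf3 held 1 at -7. The HOX13, GATA, ETS and steroid receptor motifs, present in 4.6%, 11.2%, 9.35% and 19% of promoters, had no match in the 5 windows. These letters are a description of the windows and were not tied to any measured binding.

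The table held 6332 cells of ending _1 (134850345 UMIs, median 17235 per cell) and 9410 cells of ending _2 (187280119 UMIs, median 14824.5), where a UMI is a tag that marks 1 captured RNA molecule. Cells were put into classes by cuts on marker genes that include no member. This gave 2062 luminal, 402 proximal and 1516 basal cells for ending _1 and 7592 luminal, 48 proximal and 279 basal cells for ending _2. The defining markers of prostate epithelium were present, though the cuts used them, with Krt8 at 7083 and 8286 CPM (counts per 1000000 UMIs of the group) in luminal cells of _1 and _2 and Krt5 at 1516 and 766.5 CPM in basal cells. Basal cells also held 2523 CPM of the collagen-binding Dcn in ending _1, while the fibroblast collagens Col1a1, Col1a2 and Col3a1 were each under 0.5 CPM there. There were 67 barcodes that occurred with both endings. The luminal class was spread over different clusters, mainly 1c4, 1c12 and 1c6 (24.7%, 19.6% and 18.6% of its cells) in ending _1 and 2c7, 2c13 and 2c1 (12.6%, 11.7% and 10.1%) in ending _2. With 1 library per group there is no replicate check of any value, no test was made, and all 95% intervals (exact Poisson for CPM, exact Clopper-Pearson for shares, conditional binomial for ratios) cover counting error only.

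The feature EGFP was read as the reporter from its name. Cells were called EGFP-high at 1000 CPM or more within the cell, EGFP-low below that with at least 1 UMI, and EGFP-negative at 0. Luminal cells of ending _1 fell into 1021 negative, 730 low and 311 high cells, whereas in ending _2 there were 17, 206 and 7369. EGFP was seen in cell types outside the epithelium too, since 82.9% of the 252 leukocytes of ending _2 (95% interval 77.7 to 87.4%) and 15.1% of the 1032 leukocytes of ending _1 (13.0 to 17.5%) had an EGFP UMI. The summed EGFP level of the leukocytes was 428.9 CPM in ending _2 and 46.0 CPM in ending _1, the background against which reporter calls are read. The EGFP-high cut was passed by 18 of the 252 leukocytes (7.14%) and 24 of the 240 fibroblasts (10%) of ending _2. In ending _1 it was passed by 3 of the 1032 leukocytes (0.291%) and 0 of the 124 fibroblasts. The share of EGFP-high epithelial calls due to this background was not tested. For ending _2 EGFP-low and EGFP-negative cells were pooled as all other cells. The feature ARQ, read as hARtg from its name, was at 757.7 CPM in EGFP-high and 21.7 CPM in negative luminal cells of ending _1, beside 9.76 CPM in leukocytes. In ending _2 it was at 1555 CPM in EGFP-high and 326.3 CPM in all other luminal cells, beside 59.6 CPM in leukocytes, and the other cells had 800.1 CPM among those low in Pbsn and 885.8 CPM among those low in Tgm4. Other luminal cells of ending _2 high in Pbsn had 47.9 CPM, below its leukocytes, and those high in Tgm4 had 139.9 CPM. In basal cells ARQ was at 681.8 CPM in EGFP-high and 97.1 CPM in negative cells of ending _1. In basal cells of ending _2 it was at 583.4 CPM in EGFP-high and 389.5 CPM in all other cells. Except among luminal cells high in Pbsn, the side low in reporter thus held more hARtg RNA than the leukocytes of its ending in these comparisons.

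The question of which epithelial class transcribes each factor is taken first for the HOX13 paralogs. Hoxb13 (chr11:96194316-96196610), the paralog known for the ventral and luminal prostate, was at 143.5 CPM (140.6 to 146.4) in luminal, 116.5 CPM (110.5 to 122.6) in proximal and 11.1 CPM (9.69 to 12.6) in basal cells of ending _1. For ending _2 it was at 35.1 CPM (34.2 to 36.0) in luminal, 25.1 CPM (16.1 to 37.4) in proximal and 17.3 CPM (12.4 to 23.6) in basal cells. Luminal cells were the highest and basal cells the lowest for both endings, with intervals that overlap between luminal and proximal and between proximal and basal cells for ending _2 only. Luminal exceeded basal cells by a log2 ratio of 3.70 (3.51 to 3.89) in ending _1 and 1.02 (0.57 to 1.51) in ending _2. Hoxb13 in leukocytes, a class that should lack it, was 2.94 CPM (1.68 to 4.78) and 1.08 CPM (0.131 to 3.91), below each epithelial class.

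Hoxd13 and Hoxa13 had another distribution. Hoxd13 (chr2:74668225-74671603), which patterns the distal limb and the urogenital sinus, was at 30.5 CPM (28.2 to 33.0) in basal, 22.5 CPM (19.9 to 25.3) in proximal and 8.14 CPM (7.46 to 8.87) in luminal cells of ending _1. In ending _2 it was at 27.7 CPM (21.3 to 35.4) in basal, 7.33 CPM (2.95 to 15.1) in proximal and 0.579 CPM (0.469 to 0.707) in luminal cells. The basal class was thus highest and the luminal class lowest for both endings, and the luminal level of ending _2 lay within the interval of the leukocytes, 0.541 CPM (0.0137 to 3.02). The log2 ratio of luminal over basal cells was -1.91 (-2.08 to -1.74) for ending _1 and -5.58 (-6.05 to -5.10) for ending _2, and that of proximal over luminal cells of ending _1 was 1.47 (1.25 to 1.68). Fibroblasts, whose urogenital precursors also use this gene, had 44.1 CPM (32.5 to 58.5) and 41.6 CPM (31.4 to 54.0), not below the basal cells.

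Hoxa13 (chr6:52258853-52260880), needed with Hoxd13 for genitourinary development, was at 17.1 CPM (15.4 to 19.0) in basal, 7.85 CPM (6.37 to 9.58) in proximal and 4.54 CPM (4.04 to 5.09) in luminal cells of ending _1. In ending _2 the levels were 13.4 CPM (9.12 to 19.1) in basal, 6.28 CPM (2.30 to 13.7) in proximal and 19.2 CPM (18.5 to 19.9) in luminal cells. The order of basal and luminal cells was opposite in the 2 endings, with a log2 ratio of luminal over basal cells of -1.91 (-2.14 to -1.69) in ending _1 and 0.52 (0.01 to 1.08) in ending _2, the latter under 2-fold. Leukocytes had 0.552 CPM (0.114 to 1.61) and 1.08 CPM (0.131 to 3.91), below the luminal cells of both endings. Fibroblasts had 34.0 CPM (23.9 to 46.9) and 19.3 CPM (12.6 to 28.3).

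Foxa1 (chr12:57540628-57548029), the pioneer factor, was present in every epithelial class. It was at 197.0 CPM (191.0 to 203.1) in basal, 139.1 CPM (132.6 to 145.9) in proximal and 126.4 CPM (123.6 to 129.1) in luminal cells of ending _1. It was at 170.6 CPM (154.2 to 188.3) in basal, 169.5 CPM (144.4 to 197.7) in proximal and 74.7 CPM (73.4 to 76.0) in luminal cells of ending _2. Luminal cells were the lowest of the 3 classes for both endings, by a log2 ratio of -0.64 (-0.70 to -0.59) against basal cells in ending _1 and -1.19 (-1.34 to -1.04) in ending _2, of which the latter passed 2-fold. Leukocytes and fibroblasts had between 2.76 and 4.46 CPM.

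Trp63 (chr16:25683763-25892088), the basal factor, was sparse. It was at 5.80 CPM (4.81 to 6.93, 121 UMIs) in basal, 0.243 CPM (0.0501 to 0.710, 3 UMIs) in proximal and 0.201 CPM (0.107 to 0.344, 13 UMIs) in luminal cells of ending _1. In ending _2 it was at 16.0 CPM (11.3 to 22.1, 37 UMIs) in basal, 16.7 CPM (9.57 to 27.2, 16 UMIs) in proximal and 1.77 CPM (1.57 to 1.98, 293 UMIs) in luminal cells. Basal exceeded luminal cells for both endings without overlap, and Trp63 was the 1 member under the minimum mean of 10 CPM set for counts of changed features, so its ratios are left out of them. The leukocytes held 0 UMIs in both endings, which allows up to 0.552 CPM for ending _1 and 1.62 CPM for ending _2 at 3 UMIs. Counts at the 3' end cannot separate its long and short isoforms. Gata3 (chr2:9857078-9887953), a zinc finger factor of luminal differentiation, varied little between the classes. For ending _1 it was at 96.3 CPM (93.9 to 98.7) in luminal, 90.0 CPM (84.8 to 95.4) in proximal and 72.0 CPM (68.3 to 75.7) in basal cells. In ending _2 it was at 139.1 CPM (137.3 to 140.9) in luminal, 158.0 CPM (133.8 to 185.3) in proximal and 87.9 CPM (76.2 to 100.9) in basal cells. Basal cells were the lowest for both endings, by less than 2-fold. T cells use Gata3, and the leukocytes of ending _1 had 66.4 CPM of it, so fibroblasts serve as the blank, with 7.35 CPM (3.17 to 14.5) and 9.66 CPM (5.14 to 16.5).

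The ETS factors were highest in proximal cells of ending _1. Elf3 (chr1:135253574-135258472), an epithelium-specific factor induced in inflammation, was at 156.9 CPM in proximal, 107.2 CPM (104.7 to 109.8) in luminal and 59.7 CPM (56.4 to 63.1) in basal cells of ending _1, and at 173.7 CPM (148.3 to 202.2), 62.4 CPM (61.2 to 63.6) and 39.0 CPM (31.3 to 47.9) in the same classes of ending _2. The order from proximal to luminal to basal held for both endings without overlap, and proximal over basal cells of ending _1 gave a log2 ratio of 1.39 (1.29 to 1.5). Ehf (chr2:103263431-103303275), its relative in differentiated epithelium, was at 263.3 CPM (254.4 to 272.6) in proximal, 225.3 CPM (221.6 to 229.0) in luminal and 163.9 CPM (158.5 to 169.5) in basal cells of ending _1, but at 161.2 CPM (136.7 to 188.7), 117.2 CPM (115.6 to 118.9) and 164.6 CPM (148.4 to 182.0) in ending _2. Proximal and basal cells overlapped there, and luminal cells were the lowest. Klf5 (chr14:99298691-99313412), a factor of basal and regenerating epithelium, was at 498.9 CPM (489.4 to 508.6) in basal, 360.9 CPM (350.4 to 371.7) in proximal and 249.8 CPM (246.0 to 253.7) in luminal cells of ending _1, and at 382.0 CPM (357.2 to 408.0), 285.7 CPM (252.8 to 321.7) and 153.2 CPM (151.3 to 155.1) in ending _2. Its order from basal to proximal to luminal was the same for both endings without overlap. The log2 ratio of luminal over basal cells was -1.0 (-1.03 to -0.96) in ending _1, just under the 2-fold limit, and -1.32 (-1.42 to -1.22) in ending _2.

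**Figure D1:**
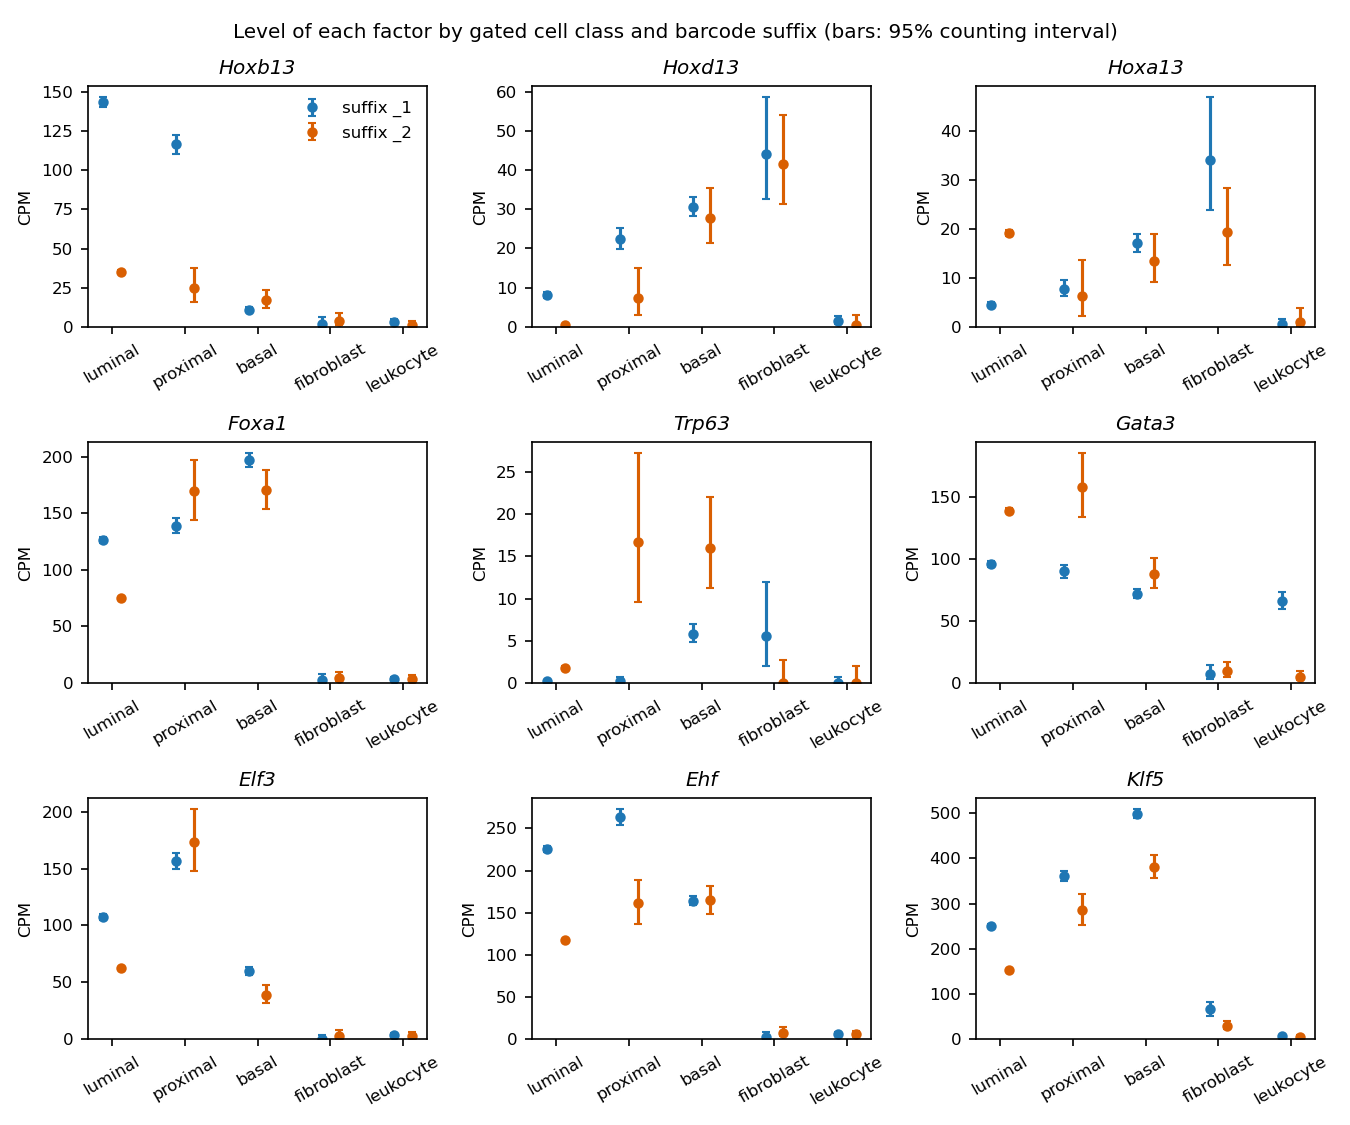
Level of each factor (y axis, CPM, from 0) in gated luminal, proximal, basal, leukocyte and fibroblast cells (x axis), with 1 point per barcode ending and 95% counting intervals. Hoxb13 is highest in luminal cells of ending _1 (143.5 CPM), Klf5 in basal cells (498.9 CPM), and Hoxd13 and Hoxa13 are also seen in fibroblasts (44.1 and 34.0 CPM in ending _1).

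Among the 8 members over the minimum, 3 of 8 passed 2-fold between luminal and basal cells of ending _1 (1 higher, 2 lower), where 31.5% of all 7278 features did, and the median log2 ratio was -0.11 for the members and 0.13 for all features. Between the same classes of ending _2, 4 of 8 passed (1 higher, 3 lower) beside 40.3% of all features, with medians of 0.01 and -0.01. Proximal over luminal cells of ending _1 gave 1 of 8, Hoxd13, beside 5.14% of all features, with medians of 0.38 and -0.04. Proximal over basal cells gave 3 of 8, Hoxb13 and Elf3 higher and Hoxa13 lower (log2 ratio -1.12, -1.46 to -0.80), beside 28.5% of all features, with medians of -0.06 and 0.11. As a set the members were thus near the background in the comparisons with basal cells. Median depth differed between the classes, 28251.5 UMIs per luminal and 11100.5 per basal cell in ending _1 and 16767 and 6181 in ending _2, and its part in these ratios was not tested beyond the thinned values below.

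At a common depth of 3000 UMIs per cell the shares of cells with a UMI gave the same picture for most members. Hoxb13 was seen in 29.5% of 2052 luminal cells of ending _1 (27.6 to 31.6%), 23.1% of proximal (19.0 to 27.5%) and 2.47% of basal cells (1.75 to 3.39%), and in 8.41% of 7515 luminal cells of ending _2 (7.79 to 9.06%). The thinned leukocytes gave 1.30% (0.623 to 2.37%) and 0.442% (0.0112 to 2.44%), and before thinning the luminal shares were 73.6% and 31.4% beside 1.45% and 0.794% of leukocytes, whose median depths were 3774 and 6914.5 UMIs. Klf5 was seen in 72.8% of thinned basal cells (70.5 to 75.1%) and 48.6% of luminal cells (46.4 to 50.8%) of ending _1, beside 1.68% of leukocytes, with unthinned shares of 96.0%, 94.9% and 3.0%. The unthinned shares of the 2 classes were close, while the thinned shares differed beyond their intervals. Hoxd13 in luminal cells of ending _2 (0.200% thinned, 0.112 to 0.329%, and 0.804% unthinned) could not be told apart from the leukocytes at this depth (0 of 226 thinned cells, which allows a share of up to 1.33%, and 0.397% unthinned). Trp63 was seen in 1.67% (1.08 to 2.46%) of thinned basal cells of ending _1, in 6.46% unthinned, and in 0 of 772 thinned leukocytes, which allows up to 0.389%, so that most basal cells had no Trp63 UMI at this depth. Per thinned cell, a mean of 2.12 of the 9 members was seen in luminal and 2.04 in basal cells of ending _1, against 1.43 and 1.87 in ending _2, and 20.5% of the luminal cells of ending _2 had none.

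Other epithelial lineage factors, a list of 39 genes of which 24 were over the minimum, were counted for comparison. Of these, 2 rose and 9 fell 2-fold or more in luminal against basal cells of ending _1 (median log2 ratio -0.27), and 3 rose and 9 fell in ending _2 (median -0.87). Gata2, a zinc finger factor, was higher in luminal cells for both endings, at 34.2 against 1.68 CPM and 69.8 against 5.63 CPM, whereas Grhl3, a factor of barrier epithelium, was lower, at 1.45 against 59.0 CPM and 0.350 against 28.1 CPM. Between proximal and luminal cells of ending _1 only Sox2 and Tfap2c passed among the 24, both higher, at 8.82 against 3.86 CPM and 18 against 8.13 CPM, and against basal cells 3 of the 24 rose and 6 fell in proximal cells.

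The next question was whether the factors differ between cells with and without the recombined reporter. Among luminal cells of ending _1, Hoxd13 rose with EGFP, from 4.99 CPM (4.2 to 5.89) in negative to 6.42 CPM (5.48 to 7.48) in low and 20.3 CPM (17.7 to 23.1) in high cells, a log2 ratio of 2.02 (1.71 to 2.34) for high over negative. The negative and low intervals overlap and the high interval is apart. It was the only member past 2-fold, 1 of 8 beside 6.47% of all features, with medians of 0.16 for the members and -0.19 for all features. Hoxb13 was at 142.0, 133.0 and 171.8 CPM in negative, low and high cells (log2 ratio 0.27, 0.20 to 0.35), and Elf3 at 99.6, 106.9 and 127.4 CPM (0.36, 0.26 to 0.45). Foxa1 (0.07, -0.02 to 0.16), Ehf (-0.03, -0.10 to 0.03), Klf5 (-0.04, -0.11 to 0.02) and Hoxa13 (0.25, -0.22 to 0.71) had intervals that include 0, and Gata3 was slightly lower (-0.21, -0.32 to -0.11). Of the EGFP-high luminal cells of ending _1, 60.5% lay in cluster 1c8, and Psca, a gene of proximal and stressed epithelium, was at 3371 CPM in EGFP-high against 430.6 CPM in negative cells, while Pbsn was at 1341 against 4688 CPM. Whether that difference in make-up bears on Hoxd13 was not tested. Luminal cells under 3200 CPM of Pbsn within the cell are called Pbsn-low. There, log2 ratios of EGFP-high over all other cells were 1.69 (1.42 to 1.96) for Hoxd13 and 1.07 (0.98 to 1.16) for Hoxb13. In cells under the same level of Tgm4 (Tgm4-low) they were 1.69 (1.41 to 1.97) and 0.555 (0.472 to 0.638). Psca still differed between the sides, at 3550 against 714.6 CPM in Pbsn-low and 3720 against 630.7 CPM in Tgm4-low cells.

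In proximal cells of ending _1 none of the 8 members passed 2-fold between 55 EGFP-high and 194 negative cells, where 5.93% of all features did, and the ratios ran from -0.18 for Klf5 to 0.49 for Hoxd13 (-0.03 to 0.99). In basal cells of ending _1, Hoxb13 passed (1 of 8 beside 5.81% of all features), at 7.72 CPM (6.05 to 9.71) in negative, 8.09 CPM (5.85 to 10.9) in low and 18.9 CPM (15.6 to 22.7) in high cells, a log2 ratio of 1.29 (0.85 to 1.73) on 115 and 73 UMIs. The ratio fell under 2-fold when cells were thinned to 3000 UMIs (0.84, -0.24 to 1.90), with means of per-cell CPM (0.88) and with classes from clusters (0.44, -0.03 to 0.91). Negative and low cells overlapped and high cells were apart. Hoxa13 went the other way without passing, at 19.1 CPM in negative, 20.1 CPM in low and 11.3 CPM in high cells (-0.76, -1.18 to -0.35). The 5 luminal list genes summed to 4398 CPM in EGFP-high and 5314 CPM in negative basal cells and the 5 basal list genes to 10248 and 16853 CPM, and the secretory gene Msmb was at 525.3 and 94.7 CPM. The part of admixed luminal RNA in the Hoxb13 value was not tested. In basal cells of ending _2, Hoxd13 passed, at 18.3 CPM (11.8 to 26.9) in 141 high against 41.5 CPM (29.5 to 56.7) in 138 other cells, a log2 ratio of -1.19 (-1.97 to -0.42), which was 1 of 8 beside 10.6% of all features. Hoxb13 was at 12.4 against 24.5 CPM there (-0.98, -1.97 to -0.01, on 17 and 23 UMIs), opposite in sign to ending _1. The sides differed in make-up here too, with defensin genes at 1009 CPM in EGFP-high and 47.9 CPM in other basal cells. The basal list genes summed to 9479 and 12516 CPM and the luminal list genes to 4684 and 5341 CPM. The part of admixed luminal RNA in the Hoxd13 and Hoxb13 values of ending _2 was not tested.

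Luminal cells of ending _2 showed the widest differences. Hoxb13 was at 29.1 CPM (28.3 to 29.9) in the 7369 EGFP-high cells and 257.3 CPM (242.4 to 272.7) in the 223 other cells, and the 206 EGFP-low cells alone had 253.3 CPM (238.3 to 269.0). Foxa1 was at 71.3 CPM (70.0 to 72.6) in EGFP-high and 201.9 CPM (188.8 to 215.7) in other cells, and Ehf at 112.5 CPM (110.9 to 114.1) and 292.0 CPM (276.2 to 308.5). Hoxa13 was the reverse, at 19.7 CPM (19.0 to 20.4) in EGFP-high and 2.74 CPM (1.42 to 4.79) in other cells. Over all luminal cells Hoxb13, Foxa1 and Ehf were thus lower where the reporter was high, with log2 ratios of -3.14 (-3.24 to -3.05) for Hoxb13, -1.5 (-1.60 to -1.40) for Foxa1 and -1.38 (-1.46 to -1.29) for Ehf, and Hoxa13 was high (2.84, 2.03 to 3.79). Hoxd13 was at 0.471 CPM (0.371 to 0.589, 76 UMIs) against 4.57 CPM (2.79 to 7.06, 20 UMIs), a log2 ratio of -3.28 (-4.01 to -2.49), with the EGFP-high level inside the leukocyte interval. Gata3 (-0.36, -0.46 to -0.25), Elf3 (0.26, 0.07 to 0.45) and Klf5 (0.33, 0.21 to 0.46) stayed under 2-fold, though none of the 3 kept its direction in all of the strata given below. In all 5 of 8 members passed, 1 higher and 4 lower, beside 24.6% of all 7295 features, and the medians were -0.86 for the members and -0.10 for all features.

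**Figure D2:**
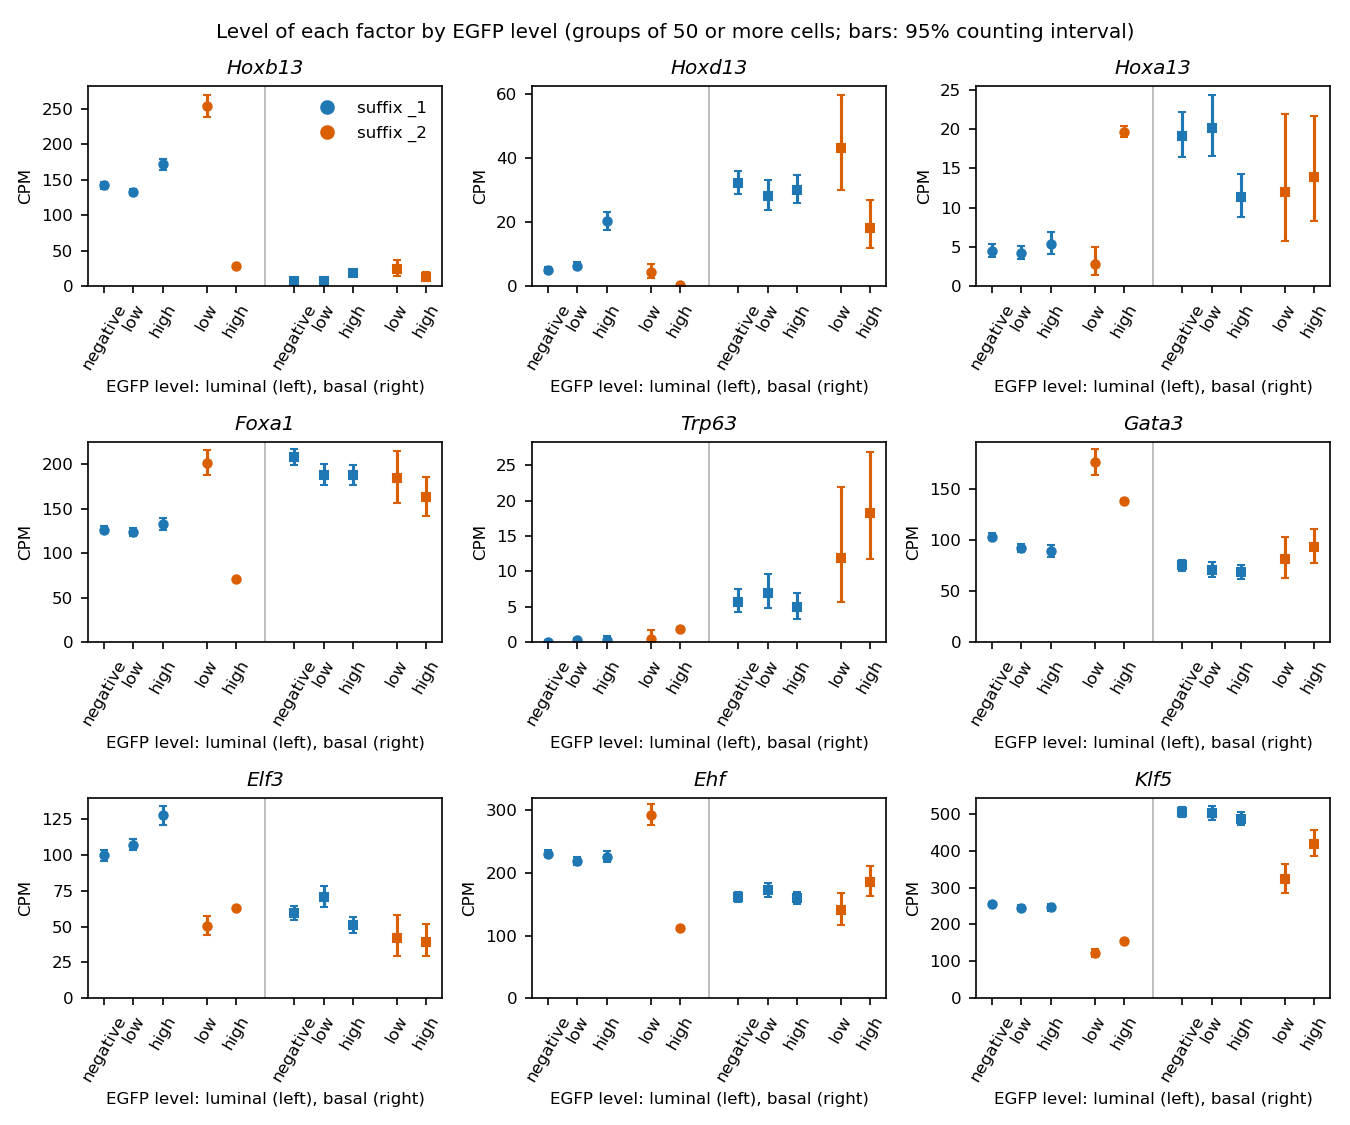
Level of each factor (y axis, CPM, from 0) by EGFP level (x axis) in luminal and basal cells, for groups of 50 or more cells, with 95% counting intervals and colours for the barcode endings. In luminal cells of ending _2 Hoxb13 falls from 253.3 CPM in EGFP-low to 29.1 CPM in EGFP-high cells and Hoxa13 rises from 2.87 to 19.7 CPM, while in ending _1 Hoxb13 is 142.0 CPM in negative and 171.8 CPM in high cells.

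The 2 sides of this comparison differed in make-up. The prostate secretory genes Pbsn (142.4 against 6309 CPM) and Tgm4 (432.7 against 12494 CPM) were lower in the EGFP-high cells of ending _2, and the seminal vesicle list of 6 detected genes was higher (2489 against 49.4 CPM). Of the 206 EGFP-low cells, 68.0% lay in cluster 2c12 and 18.9% in cluster 2c14. When only Pbsn-high luminal cells, at 3200 CPM or more within the cell, were compared (80 against 121 cells), Hoxb13 was at 185.0 and 229.8 CPM, a log2 ratio of -0.31 (-0.50 to -0.13), and Foxa1 at 169.3 and 211.7 CPM (-0.32, -0.51 to -0.13), with Ehf at 233.5 and 299.5 CPM (-0.36, -0.52 to -0.20). These 3 ratios fell under 2-fold there, whereas Hoxa13 kept a log2 ratio of 2.03 (0.51 to 3.83) on 16 and 5 UMIs and Hoxd13 turned to 1.35 (-1.45 to 4.82) on 4 and 2 UMIs. Among Pbsn-low cells (7289 against 102) Hoxb13 was at 27.0 and 304.0 CPM (-3.49, -3.63 to -3.36), Foxa1 at 70.0 and 185.4 CPM (-1.41, -1.57 to -1.24), Hoxa13 at 19.8 and 4.33 CPM (2.20, 1.15 to 3.51) and Hoxd13 at 0.452 and 11.1 CPM (-4.62, -5.38 to -3.79). Within Tgm4-high cells, cut at the same level of Tgm4 (165 against 149), the log2 ratio was -1.07 (-1.23 to -0.90) for Hoxb13, -0.83 (-0.99 to -0.66) for Foxa1, -0.63 (-0.76 to -0.49) for Ehf and 2.06 (0.79 to 3.61) for Hoxa13. Among Tgm4-low cells (7204 against 74), where both sides held little Pbsn (53.3 and 17.4 CPM) and Tgm4 (179.8 and 40.3 CPM), Hoxb13 was at 26.8 and 327.6 CPM (-3.61, -3.77 to -3.45). The sides still differed in Psca (110.7 and 1161 CPM), Clu (1047 and 4899 CPM) and the seminal vesicle list (2467 and 56.7 CPM). Foxa1 was under 2-fold in these cells (-0.98, -1.21 to -0.73), Ehf was past it (-1.32, -1.49 to -1.15), Hoxa13 was at 1.86 (0.74 to 3.31) and Gata3 passed it upward, at 137.2 and 52.2 CPM (1.39, 1.02 to 1.80). Elf3 was negative in Pbsn-low (-0.36, -0.61 to -0.10) and Tgm4-low cells (-0.64, -0.91 to -0.35), against 0.26 over all luminal cells. Its interval included 0 in Pbsn-high (-0.12, -0.58 to 0.34) and Tgm4-high cells (-0.12, -0.47 to 0.24). Klf5 was positive in Tgm4-high cells (0.56, 0.32 to 0.80) and negative in Pbsn-low (-0.56) and Tgm4-low cells (-0.92). In Pbsn-high cells the Klf5 interval included 0 (0.28, -0.05 to 0.60). The direction of Hoxb13, Foxa1, Ehf and Hoxa13 was the same in each of these strata, which were chosen after the data were seen. The size of the Hoxb13 ratio thus moved with the stratum, from -0.31 in Pbsn-high to -3.61 in Tgm4-low cells.

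**Figure D3:**
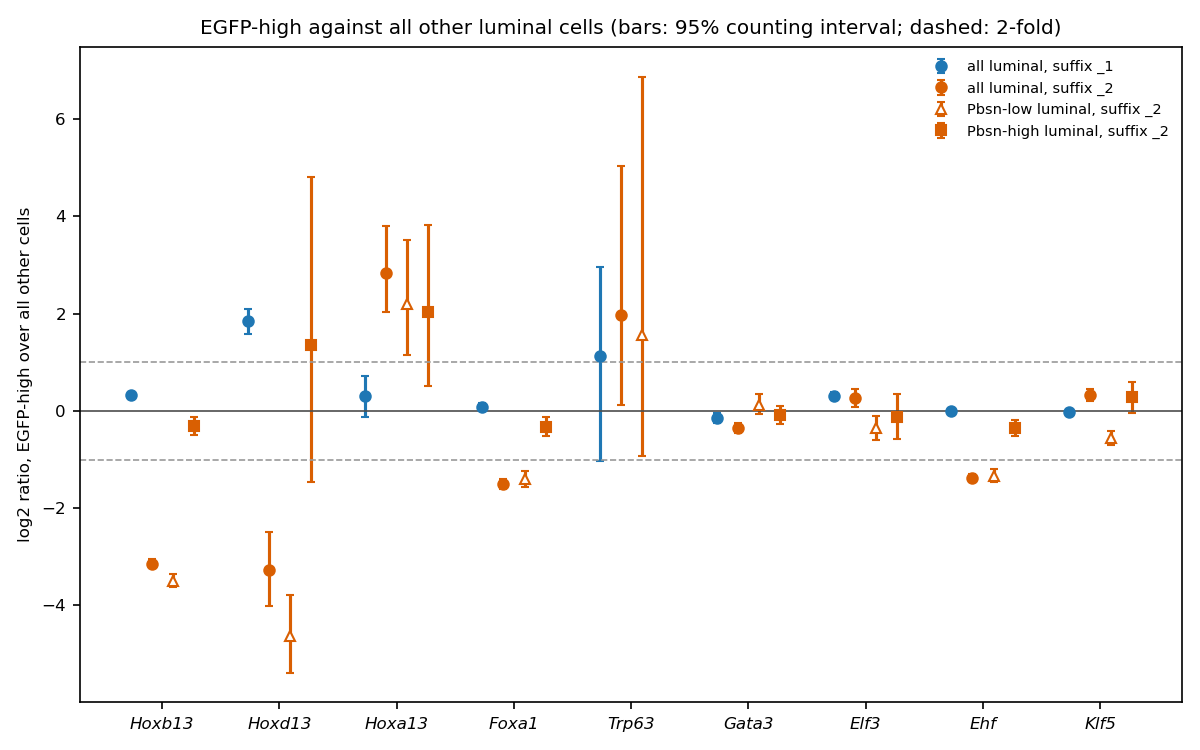
Log2 ratio of EGFP-high over all other luminal cells (y axis) for each factor (x axis), for each barcode ending and within secretory strata, with 95% counting intervals and dashed lines at 2-fold. Hoxb13 is at -3.14 over all luminal cells of ending _2 and -0.31 within the Pbsn-high cells, whereas Hoxa13 is above 2 in both (2.84 and 2.03).

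Genes beside the members in the Hox clusters were then set next to them, since posterior Hox genes of 1 cluster are commonly transcribed together. Of 13 other posterior Hox genes listed, 12 were in the table and 3, Hoxa9, Hoxa10 and Hoxb9, were over the minimum. Hoxa9 was at 67.9 CPM (66.6 to 69.1) in EGFP-high and 9.60 CPM (6.92 to 13.0) in other luminal cells of ending _2, and Hoxa10 at 87.0 CPM (85.6 to 88.5) and 10.5 CPM (7.70 to 14.0). With Hoxa11 (14.5 and 0.686 CPM, 2335 and 3 UMIs), these neighbours of Hoxa13 on chromosome 6 were higher in EGFP-high cells, as Hoxa13 was, with log2 ratios of 2.82 for Hoxa9, 3.05 for Hoxa10 and 4.40 for Hoxa11. Hoxb9, which lies on chromosome 11 with Hoxb13, was at 23.3 and 26.5 CPM (-0.19, -0.45 to 0.10), unlike Hoxb13. The neighbours of Hoxd13 on chromosome 2 were sparse, and Hoxd8, Hoxd9 and Hoxd11 were lower in EGFP-high cells (log2 ratios -4.08, -4.53 and -3.57, on 24 and 11, 8 and 5, and 28 and 9 UMIs). Of the others, Hoxd12 had 7 and 1 UMIs, Hoxd10 4 and 0, and Hoxc9, Hoxc10 and Hoxc13 at most 2. In ending _1 the HoxD genes went with Hoxd13 in the other direction, with Hoxd11 at 6.03 CPM in EGFP-high against 1.21 CPM in negative luminal cells (2.31, 1.70 to 2.96) and Hoxd10 at 2.10 against 0.535 CPM (1.97, 0.97 to 3.02), while Hoxa9 (0.73, 0.52 to 0.94), Hoxa10 (0.39, 0.16 to 0.62) and Hoxb9 (-0.58, -0.94 to -0.24) stayed under 2-fold.

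**Figure D4:**
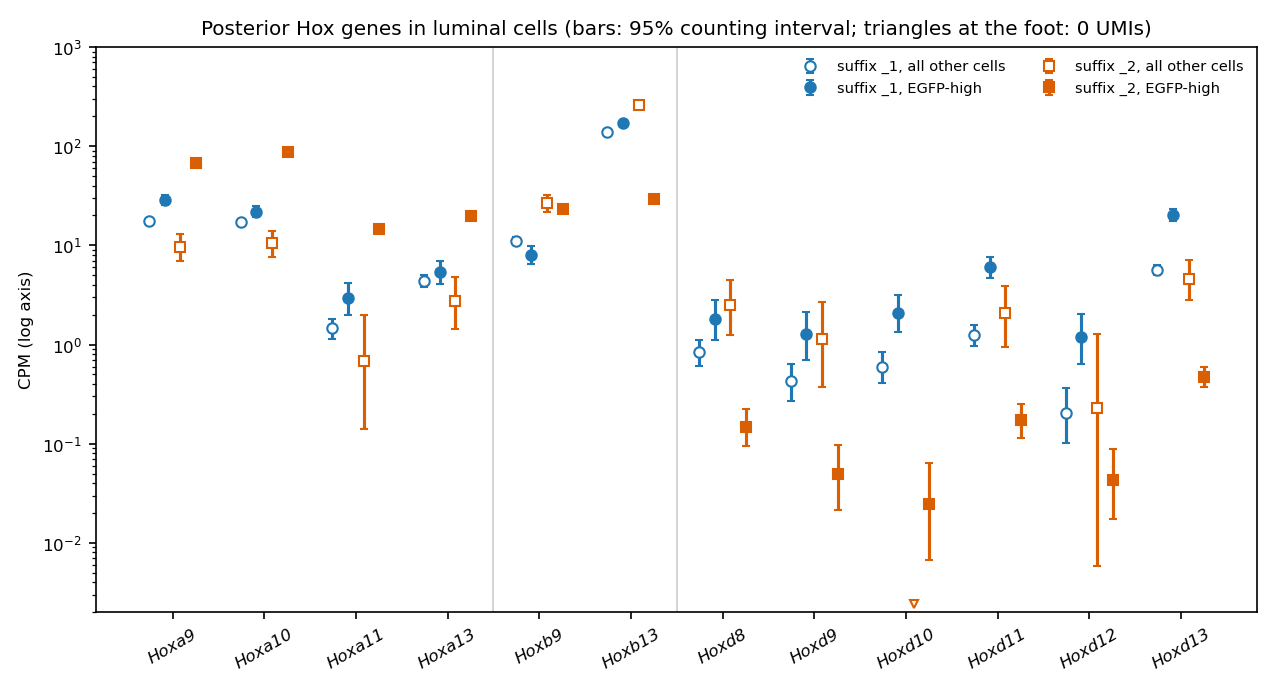
Level of posterior Hox genes (y axis, CPM on a log axis) in EGFP-high and all other luminal cells of each barcode ending, with 95% counting intervals and triangles at the foot for groups with 0 UMIs. In ending _2 the HoxA genes are higher in EGFP-high cells (Hoxa10 87.0 against 10.5 CPM) and the HoxD genes lower (Hoxd11 0.173 against 2.06 CPM).

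Of the 24 other lineage factors, 5 rose and 7 fell between EGFP-high and all other luminal cells of ending _2 (median -0.15). Nfib, a chromatin-binding factor, was among those that fell, at 49.2 against 136.5 CPM. The rises included Tbx3, a developmental repressor, at 139.7 against 40.9 CPM (1.77, 1.56 to 1.99), and the orphan nuclear receptor Nr2f2, at 61.1 against 28.6 CPM. In ending _1, 3 of the 24 rose and 0 fell in EGFP-high against negative luminal cells, Nr2f2 among them at 37.8 against 14.1 CPM (1.42, 1.22 to 1.62).

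The endings were also compared within a class and reporter level. No label gives the tissue behind an ending, and the make-up of the luminal class and the depth per cell differed between them. Among EGFP-high luminal cells Hoxb13 was at 29.1 CPM in ending _2 and 171.8 CPM in ending _1 (log2 ratio -2.56, -2.64 to -2.48), Hoxd13 at 0.471 and 20.3 CPM (-5.43, -5.82 to -5.05) and Hoxa13 at 19.7 and 5.39 CPM (1.87, 1.5 to 2.26). Elf3 (-1.02, -1.10 to -0.94) and Ehf (-1.0, -1.06 to -0.94) lay just past 2-fold and Foxa1 just under it (-0.89, -0.97 to -0.81). The count was 5 of 8 members, 1 higher and 4 lower, beside 23.5% of all features, with medians of -0.95 and -0.09. Among EGFP-low luminal cells 2 of 8 members passed beside 14.7% of all features, Elf3 (-1.09, -1.29 to -0.88) and Klf5 (-1.0, -1.14 to -0.87), while Hoxb13 was higher in ending _2 by 0.93 (0.83 to 1.03) and Gata3 by 0.93 (0.81 to 1.05). Hoxb13 was therefore lower in ending _2 where EGFP was high and higher where it was low, but the EGFP-low cells of ending _2 lay mostly in the Pbsn- and Tgm4-rich cluster 2c12. Among Pbsn-high luminal cells Hoxb13 was lower in ending _2, at 210.1 against 271.3 CPM (-0.37, -0.47 to -0.27), and so it was among Tgm4-high cells, at 164.4 against 214.4 CPM (-0.38, -0.48 to -0.29). Among EGFP-low basal cells Hoxb13 was at 23.9 against 8.09 CPM (1.56, 0.72 to 2.36, on 20 and 43 UMIs), 1 of 8 members beside 13.3% of all features, and among EGFP-high basal cells 0 of 8 members passed beside 14% of all features. The EGFP-low luminal cells of ending _2 had 227.1 CPM of EGFP, below the 428.9 CPM of its leukocytes, and whether the cells of the 2 endings are alike in recombination was not tested.

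Among luminal cells the factors varied with the secretory programme. Pbsn-high cells, marked by the androgen-regulated probasin gene, had 271.3 CPM of Hoxb13 against 93.9 CPM in other luminal cells of ending _1 (1.53, 1.47 to 1.59) and 210.1 against 29.8 CPM in ending _2 (2.82, 2.72 to 2.92). Hoxd13 was lower in Pbsn-high cells of ending _1, at 3.87 against 9.80 CPM (-1.34, -1.72 to -0.97), and in ending _2 it passed 2-fold upward on 6 UMIs with an interval that includes 0 (1.13, -0.36 to 2.30). Foxa1 (193.0 against 71.1 CPM) and Ehf (270.5 against 112.6 CPM) were higher and Hoxa13 (4.27 against 19.7 CPM) and Klf5 (65.1 against 155.9 CPM) lower in Pbsn-high cells of ending _2. Members past 2-fold numbered 2 of 8 beside 12.2% of all features in ending _1 and 6 of 8 beside 24.8% in ending _2, with member medians of -0.17 and 0.84 beside -0.09 and 0.07 over all features.

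Tgm4-high cells, which carry the transglutaminase of the anterior prostate, had 163.0 CPM of Gata3 against 77.3 CPM in other luminal cells of ending _1 (1.08, 1.0 to 1.15), the 1 of 8 members past 2-fold there beside 8.09% of all features. In ending _2 they had 164.4 against 28.9 CPM of Hoxb13, 168.0 against 70.2 CPM of Foxa1, 237.9 against 111.4 CPM of Ehf, 3.42 against 0.442 CPM of Hoxd13 and 5.13 against 19.9 CPM of Hoxa13, which made 5 of 8 beside 18.5% of all features. The Tgm4-high and Pbsn-high cells of ending _2 held less EGFP than the other luminal cells (4192 against 10432 CPM and 2429 against 10382 CPM), so these comparisons are not separate from that of reporter level. Msmb-high cells of ending _1, which make a protein of seminal plasma, had 269.9 against 106.5 CPM of Hoxb13 (1.34, 1.28 to 1.40), 1 of 8 beside 17.9% of all features. Krt6a-high cells of ending _1, with a keratin of stressed epithelium, had 47.0 against 188.9 CPM of Hoxb13 (-2.01, -2.11 to -1.91), again 1 of 8, beside 8.8% of all features. High Hoxb13 thus went with secretory genes and low Hoxb13 with Krt6a in ending _1. The Krt6a-high cells held less Pbsn (400.8 against 5857 CPM) and Msmb (985.9 against 15720 CPM) than the other luminal cells. Their comparison is therefore not separate from those of the secretory genes.

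Defensin-high cells of ending _2 had 18.5 against 38.3 CPM of Hoxb13 (-1.05, -1.19 to -0.92) and 0.226 against 0.646 CPM of Hoxd13 (6 and 90 UMIs, both inside the leukocyte interval), 2 of 8 beside 4.26% of all features. Hoxb13 fell just under 2-fold with stricter gates (-0.97) and after thinning (-0.93), where 0 of the members passed. Cells high in seminal vesicle genes had 17.7 against 37.2 CPM of Hoxb13 (-1.07, -1.24 to -0.90), 1 of 8 beside 3.66% of all features, and Hoxa13 was at 11.2 against 20.2 CPM (-0.85, -1.06 to -0.64). Among cycling-high cells 0 of 8 members passed beside 4.62% of all features, and Hoxb13 was at 31.2 against 35.5 CPM and Klf5 at 125.4 against 156.0 CPM. The member medians in these 3 comparisons were -0.21, -0.24 and -0.11, beside -0.08, -0.11 and 0.03 over all features.

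Clusters of luminal cells, made without the members and the other listed factors, gave the range of each factor. Over the 14 clusters of ending _2 with 50 or more luminal cells Hoxb13 ran from 9.99 CPM in 2c10 to 337.2 CPM in 2c14, with 206.4 CPM in the Pbsn- and Tgm4-rich 2c12, and a median of 26.3 CPM. Cluster 2c14 held little Pbsn and Tgm4 (27.7 and 56.8 CPM), with Msmb at 1661 CPM and Psca at 557.8 CPM. Over the 7 clusters of ending _1 Hoxb13 ran from 22.0 CPM in the clusterin-rich 1c12 to 278.6 CPM in the Pbsn-rich 1c5. Foxa1 ran only from 101.2 to 152.2 CPM in ending _1 and from 47.0 to 196.2 CPM in ending _2. Hoxb13 therefore had a wider range than Foxa1 for both endings, at 12.7-fold against 1.5-fold in ending _1 and 33.8-fold against 4.17-fold in ending _2. Klf5 ran from 41.3 CPM in 2c15 to 332.5 CPM in 2c6, 8.06-fold. In ending _1 Hoxd13 was highest in cluster 1c8 (23.6 CPM), the cluster with the most EGFP (4907 CPM), and Gata3 in cluster 1c4 (176.6 CPM), rich in Tgm4. Hoxa13 was between 9.96 and 32.6 CPM in the 11 clusters of ending _2 other than 2c12, 2c14 and 2c18, where it was at 4.25, 8.36 and 6.10 CPM. Those 3 clusters had the highest Hoxd13 levels of ending _2, at 3.74, 4.40 and 14.2 CPM, and the lowest EGFP levels, at 2407, 3282 and 6051 CPM.

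**Figure D5:**
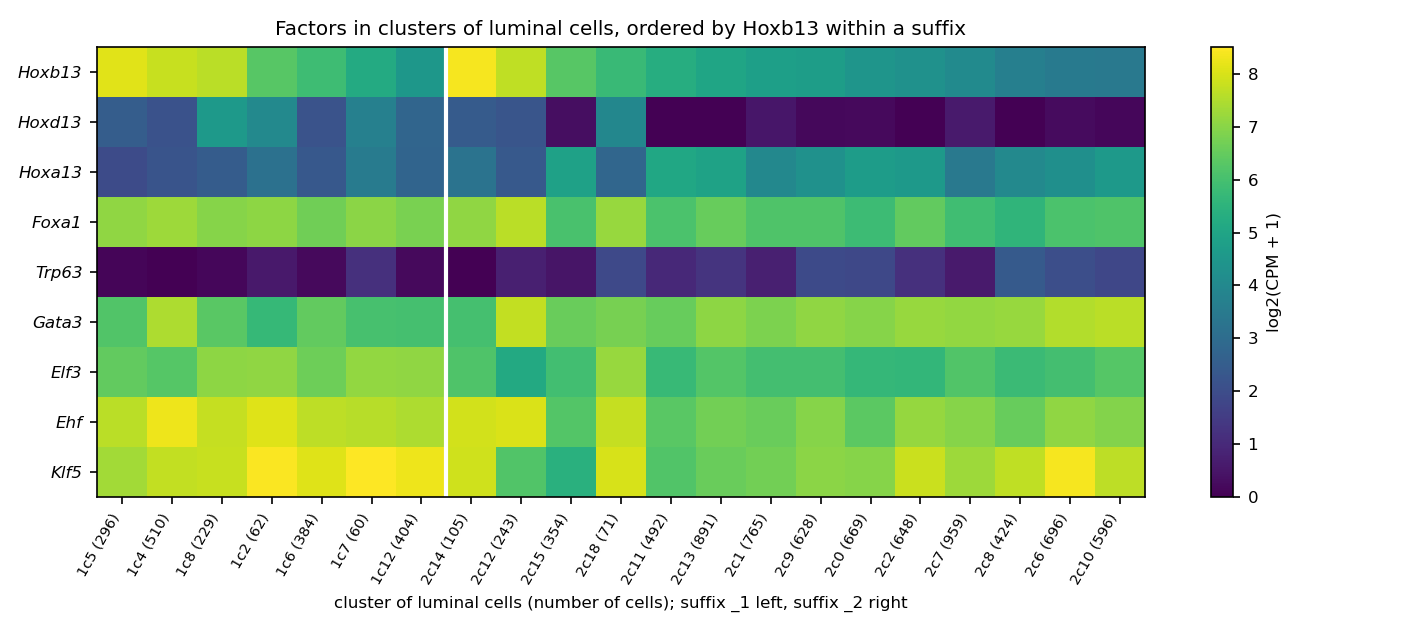
Level of each factor (rows, log2 of CPM plus 1 as colour) in clusters of luminal cells (columns, with the number of cells), ending _1 on the left and ending _2 on the right, ordered by Hoxb13. Hoxb13 spans 9.99 to 337.2 CPM in ending _2, and Hoxa13 is at its lowest, 4.25 CPM, in cluster 2c12.

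Likeness of pattern was described over the 13 groups of class, reporter level and ending with 50 or more cells, as Pearson's r of log2(CPM + 10) and without a test, since groups of 1 ending share a library, depth and free RNA. Among the pairs of members Gata3 and Klf5 (r = -0.91) and Hoxb13 and Hoxa13 (r = -0.89) were the most opposed, and Hoxd13 and Klf5 (r = 0.80) and Hoxb13 and Ehf (r = 0.79) the most alike. Among all features the nearest to Hoxb13 were Psmd5 (r = 0.98), Gmppb (0.98) and Scand1 (0.97), and to Foxa1 Bag3 (0.96), Mgat2 and Fbxl5 (both 0.94). The nearest to Hoxd13 was the basal keratin gene Krt15 (0.95), with Fgfbp1 (0.94) and Ces2g (0.92), and the nearest to Hoxa13 were Grk6, Rsf1 and Pcdh7 (each 0.93). Krt15 belongs to the basal list that set the classes, so its pattern over these groups was partly fixed by the gates. Trp63 lay nearest to Ptn (0.98), Thoc7 and B930036N10Rik (both 0.96), and Gata3 to Pck2, Stard3nl (0.95 for each) and Rit1 (0.94). Of the classes behind these groups, only basal cells of ending _2 held Trp63 over the added 10 CPM (16.0 CPM). The next was basal cells of ending _1 (5.80 CPM), so the Trp63 values rest on a sparse gene. Ehf lay nearest to Nus1 (0.95), Ttc3 and Gfpt1 (both 0.93), and Klf5 to Pdcd10 (0.97), Kpna2 (0.97) and Ppl (0.96). The nearest to Elf3 were the interferon-response genes Irf7 (0.97) and Rtp4 (0.96) with Tradd (0.96).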

How the data were processed

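Prostate tissue of the PIN and PCa samples was profiled with 10x Genomics v2 chemistry. The authors counted UMIs with Cell Ranger 3.1.0 against mm10, per the submitters' processing notes, with the hARtg and mGFP sequences added and with filters on empty droplets, multiplets and mitochondrial RNA. The handling of strand in counting is not given in the sources used here, and the assignment of reads to overlapping genes was not checked. What the authors deposited is on a natural log scale, the log of 1 plus a gene's UMIs per 10000 in that cell. Undoing this step gave UMIs that were whole, to 0.001, in 100% of the nonzero entries.

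Cells were gated on the summed CPM of marker lists in each cell (Python 3.11.15, numpy 2.4.6, pandas 2.3.3). Epithelial cells had under 300 CPM of the leukocyte, fibroblast, endothelium and mural lists, where Dcn, which basal cells carried, was left out. Basal cells had 1600 CPM or more of the basal list, 500 or more of Krt5 and Krt14, and less Krt8 and Krt18 than basal list. Luminal and proximal cells had under 500 CPM of Krt5 and Krt14, 2000 or more of Krt8 and Krt18, over 4 times as much of these as of Krt5 and Krt14, and more of them than of the basal list. Of these, proximal cells had 300 CPM or more of Krt4 and Ppp1r1b and 1600 or more of the proximal list, and luminal cells under 150 CPM of Krt4 and Ppp1r1b. Leukocytes and fibroblasts had 1000 CPM or more of their lists. Within luminal cells the cuts were 3200 CPM for Tgm4, Pbsn and seminal vesicle genes, 12800 for Msmb, 800 for Krt6a, 1600 for the 10 defensins and 200 for cycling genes. Doublet calls (Scrublet, run through scanpy 1.11.5 with 6% expected and a limit of 0.25) fell on 155 and 175 cells of endings _1 and _2, which were left out. Clusters (leidenalg 0.10.2) left out the members and the other listed factors.

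The summed UMIs of each group were given as CPM with exact Poisson intervals (scipy 1.17.1). A group needed 50 cells for a ratio. A ratio of 2-fold or more counted as changed among the 7303 features with a mean of 10 CPM or more over the groups of class and ending. A sum of 0 was set to 3 UMIs, a pair of sums that both lay at 3 or below got no ratio, nor did one whose bound ran against the side at 0, and no p-value was computed because cells are not replicates. Intervals and floors cover counting error only. The ratio code was tested on simulated sums.

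The text names all 9 members, counts over the 2 lists of other factors with a few of their genes, and the 3 nearest features of each member. The members and lists were chosen with earlier results of these data known. The cuts were set on the distribution of the marker levels. Alternatives were stricter gates, classes from clusters, EGFP cuts of 500 and 2000 CPM, means of per-cell CPM, totals without features over 1% of the UMIs, doublets kept, thinning to 3000 UMIs and a minimum of 20 CPM. The comparison of EGFP-high with all other cells, the strata by Pbsn and Tgm4 and the removal of shared barcodes were added after the data were seen.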

Additional observations from a re-analysis of the deposited data

Results flagged for a closer look

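Opposite signs in the 2 barcode endings drew 4 results out for a closer look. For EGFP-high over all other luminal cells the log2 ratio of Hoxb13 was 0.32 in ending _1 and -3.14 in ending _2. Foxa1 gave 0.08 and -1.50, and Hoxd13 gave 1.84 and -3.28. Among basal cells Hoxb13 gave 1.26 in ending _1 and -0.98 in ending _2. The difference between the endings was not tested in any of them, since no label ties an ending to a group of the study and each has 1 set of cells. The basal ratio of ending _1 is close to that against negative cells, which fell under 2-fold after thinning, with means of per-cell CPM and with classes from clusters. Of the 206 EGFP-low luminal cells of ending _2, 68.0% lay in cluster 2c12. In ending _1 the other luminal cells were 1021 negative and 730 low cells. The largest share of the negative cells was 33.1%, in cluster 1c4, and that of the low cells was 26.7%, in cluster 1c12. The part of this make-up in the opposite signs was not tested.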

How the results depend on the processing

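The 46 ratios of members past 2-fold had 420 values under the alternatives, of which 419 kept their direction and 380 also stayed past 2-fold. The minimum of 20 CPM does not change a ratio itself. Its values among the 420 therefore repeat the main ones and could not differ. The 1 that reversed was Hoxd13 between EGFP-high and all other luminal cells of ending _2, at 1.35 within Pbsn-high cells. The minimum of 20 CPM left 6 members and so removed Hoxd13 and Hoxa13, which took the number of members past 2-fold to 3 for EGFP-high against other luminal cells and for the endings in EGFP-high luminal cells, 3 for Tgm4-high cells of ending _2, 1 for luminal against basal cells and for Pbsn-high cells of ending _1 and for defensin-high cells, and 0 for proximal against luminal cells, for EGFP-high against negative luminal cells of ending _1 and for EGFP-high against other basal cells of ending _2. Thinning gave 0 for EGFP-high against negative basal cells, the endings in EGFP-low basal cells and defensin-high cells, 1 for the endings in EGFP-high basal and in EGFP-low luminal cells, 2 for EGFP-high against negative luminal cells of ending _1 and 3 for Tgm4-high cells of ending _1. Classes from clusters gave 2 for proximal against luminal cells and for the endings in EGFP-low basal cells. Means of per-cell CPM gave 0 for EGFP-high against negative basal cells and the endings in EGFP-low luminal cells, and 2 for cells high in seminal vesicle genes. Stricter gates gave 1 for the endings in EGFP-low luminal cells and for Pbsn-high cells of ending _1, and 0 for defensin-high cells. Cuts of 500 and 2000 CPM EGFP each gave 2 for EGFP-high against other basal cells of ending _2, as did leaving out shared barcodes, and each gave 1 for the endings in EGFP-low luminal cells, as did keeping doublets. The strata of Pbsn-high and of Tgm4-high cells each gave 2 for EGFP-high against other luminal cells of ending _2. In Pbsn-high cells these were Hoxa13 and the reversed Hoxd13, the latter on 4 and 2 UMIs with an interval that includes 0. In Tgm4-high cells they were Hoxb13 and Hoxa13. The share of all features past 2-fold was not computed for the strata. Except for the minimum, the cause was not tested.

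No paired analysis was possible because PIN and PCa had 1 library apiece and no label ties a cell to either. The comparison of EGFP-high with negative proximal cells had under 50 cells a side with stricter gates and with classes from clusters and gave no value there. No left-out replicate could be tried with 1 library per group. The sparse members Hoxd13, Hoxa13 and Trp63 rest on the fewest UMIs, and counting error is the only error the intervals hold.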

Other observations

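Joint detection was looked at in cells thinned to 3000 UMIs, as a description. Of the 606 luminal cells of ending _1 with a Hoxb13 UMI, 34.8% also had a Foxa1 UMI, beside 32.2% of all 2052 cells. For Elf3, 45.6% of the 531 cells with a UMI also had one of Ehf, beside 48.3% of all cells. In ending _2, 31 of the 632 luminal cells with a Hoxb13 UMI had one of Hoxa13, 4.91% beside 5.67% of all 7515 cells, and 26.1% had one of Foxa1 beside 19.3% of all cells. Of the 36 luminal cells of ending _2 with a Trp63 UMI, 11 had one of Gata3, 30.6% beside 30.6% of all cells. One of Hoxb13 was seen in 2 of them, 5.56% beside 8.41% of all cells.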
